A study of Mus musculus with 10 samples.

Results

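This account describes 7 genes of smooth muscle, the actin cytoskeleton and caveolae in mouse colon during chemically induced colitis. They are Tpm2, Tmod1, Flnc, Tln1, Cav1, Cav2 and Npr2, taken by gene symbol from 55416 rows of the deposited count tables. All 7 lie in the first 59900000 bases of chromosome 4 or the first 30300000 bases of chromosome 6 (mm10), where counts were taken to follow the gene names. The same was taken for a stretch of chromosome 15, from 10400000 to 38100000, used only for other listed genes, and for no other part of the genome. They were examined because the colon wall contains a thick layer of smooth muscle, so that their RNA bears on how much muscle a piece of colon contributed.

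Colons came from mice lacking Vista, an immune checkpoint protein encoded by Vsir, and from wild-type (WT) mice. All mice of both genotypes drank 2% dextran sulfate sodium (DSS), which injures the colonic epithelium, for 7 days, and no untreated mice are among the 10 libraries. A first deposited table holds knockout libraries 1 to 3 and WT libraries 1 to 3, and a second table holds knockout 4 and 5 and WT 4 and 5. The genotype was labelled VISTA knockdown in the first table and Vista-/- in the second, and both are called knockout here. Age, sex, strain and the construction of the allele were not given in the labels. No label states that the libraries came from separate animals, and the p-values given here thus reflect only how much these libraries vary.

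Smooth muscle contracts when myosin pulls on actin thin filaments. Tropomyosins lie along those filaments and tropomodulins cap their slow-growing ends. Filamins cross-link actin, and talins join actin to integrins at the cell membrane. Caveolae are small pits of the plasma membrane, built on caveolins, and they are abundant in smooth muscle, endothelium, fibroblasts and fat cells. The natriuretic peptide receptor encoded by Npr2 makes cyclic GMP, a messenger that relaxes smooth muscle.

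Library totals ran from 3691322 to 4071238 counts. Values are given as CPM, the count divided by the library total and multiplied by 1000000. WT 4 and WT 5 stood apart, scoring 40.97 and 44.55 on the leading principal component (37.2% of the variance of log2(CPM + 1)), while no other library scored above 6.33. The nearest pair of libraries of the same genotype, WT 2 and WT 3, had a mean chi-square per row of 4.63, so no pair agreed within sampling noise. Of the protein-coding rows in the chromosome 4 stretch, 60.7% had 500 counts or more over all libraries, and in the chromosome 6 stretch 60.0% did, against 21.6% outside the named stretches. Within 1 Mb of Flnc the count was 17 of 26 rows and within 1 Mb of Cav1 it was 6 of 9. The row of the targeted gene Vsir lies outside and held 27, 49, 33, 97 and 40 counts in knockouts 1 to 5 and 42, 78, 82, 5 and 0 in WT 1 to 5, which does not check the genotype labels. The usual muscle markers lie outside too. Of 19 such rows, among them Acta2, Myh11, Des and Tagln, 5 reached 500 counts, and Des held 9, so none of them was used.

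Upstream sequences are shown for Tpm2 and Cav1, which varied together between libraries, for Cav2, the neighbour of Cav1, and for Flnc, whose first-table estimate had the opposite sign. Each is the 250 bases before a RefSeq start of the gene in GRCm38.p6 (the first of the starts listed for Cav1 and Flnc), written along the gene's own strand, with GGGCGG on either strand in capitals. They lie at chr4:43523555-43523804 (minus strand), chr6:17306085-17306334 (plus strand), chr6:17280935-17281184 (plus strand) and chr6:29432903-29433152 (plus strand). The Tpm2 row is annotated up to 43523765, so most of its window, with its GGGCGG matches, lies inside the annotated gene.
Tpm2: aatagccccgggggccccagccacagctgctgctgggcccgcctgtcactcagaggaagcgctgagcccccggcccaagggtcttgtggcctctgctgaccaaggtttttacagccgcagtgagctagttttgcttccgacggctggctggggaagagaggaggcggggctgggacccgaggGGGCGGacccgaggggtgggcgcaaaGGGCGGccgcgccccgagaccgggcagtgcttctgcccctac
Cav1: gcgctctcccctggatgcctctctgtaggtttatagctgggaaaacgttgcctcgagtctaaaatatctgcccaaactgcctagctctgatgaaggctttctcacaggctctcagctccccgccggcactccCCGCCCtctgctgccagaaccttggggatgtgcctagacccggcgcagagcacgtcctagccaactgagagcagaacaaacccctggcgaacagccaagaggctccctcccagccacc
Cav2: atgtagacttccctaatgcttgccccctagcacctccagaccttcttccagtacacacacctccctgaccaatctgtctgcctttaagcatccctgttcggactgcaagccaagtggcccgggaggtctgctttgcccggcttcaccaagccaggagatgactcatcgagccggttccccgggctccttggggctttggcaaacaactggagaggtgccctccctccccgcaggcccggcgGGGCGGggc
Flnc: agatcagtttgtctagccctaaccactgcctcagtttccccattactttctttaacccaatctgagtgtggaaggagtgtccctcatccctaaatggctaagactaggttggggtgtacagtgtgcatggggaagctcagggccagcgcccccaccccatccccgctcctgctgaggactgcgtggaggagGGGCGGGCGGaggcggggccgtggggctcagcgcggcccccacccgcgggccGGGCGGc
GGGCGG, the core of a GC box, occurred at 2 places in the window of Tpm2, at 1 in Cav1, at 1 in Cav2 and at 3 in Flnc, of which a pair overlap. It was found on either strand in 32.7% of 32851 upstream windows of the same length. The CArG box, the motif bound by serum response factor in muscle genes, searched on both strands, was found in none of the windows of the 7 genes and in 1.47% of all windows. All 7 genes matched a RefSeq entry.

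Per kilobase of annotated exon, Tpm2 had the highest level, at 329 ± 106 CPM per kb (SD over 10 libraries). Tln1 followed with 102 ± 6.75 and Cav1 with 83.1 ± 30.5 CPM per kb, a gap smaller than the SD of Cav1. Flnc had 20.9 ± 9.93, Cav2 17.4 ± 4.84 and Npr2 10.8 ± 2.51 CPM per kb, and neighbours in that order overlapped within their SD. Tmod1 was lowest, at 1.97 ± 0.80 CPM per kb. It held only 17 to 56 counts in a library, against 1985 to 5103 for Tpm2, so it is the least precisely counted of the 7. The genes also differed in how much they varied between libraries. The highest library was 1.22 times the lowest for Tln1, 2.75 times for Tpm2 and 4.95 times for Flnc.

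**Figure D1:**
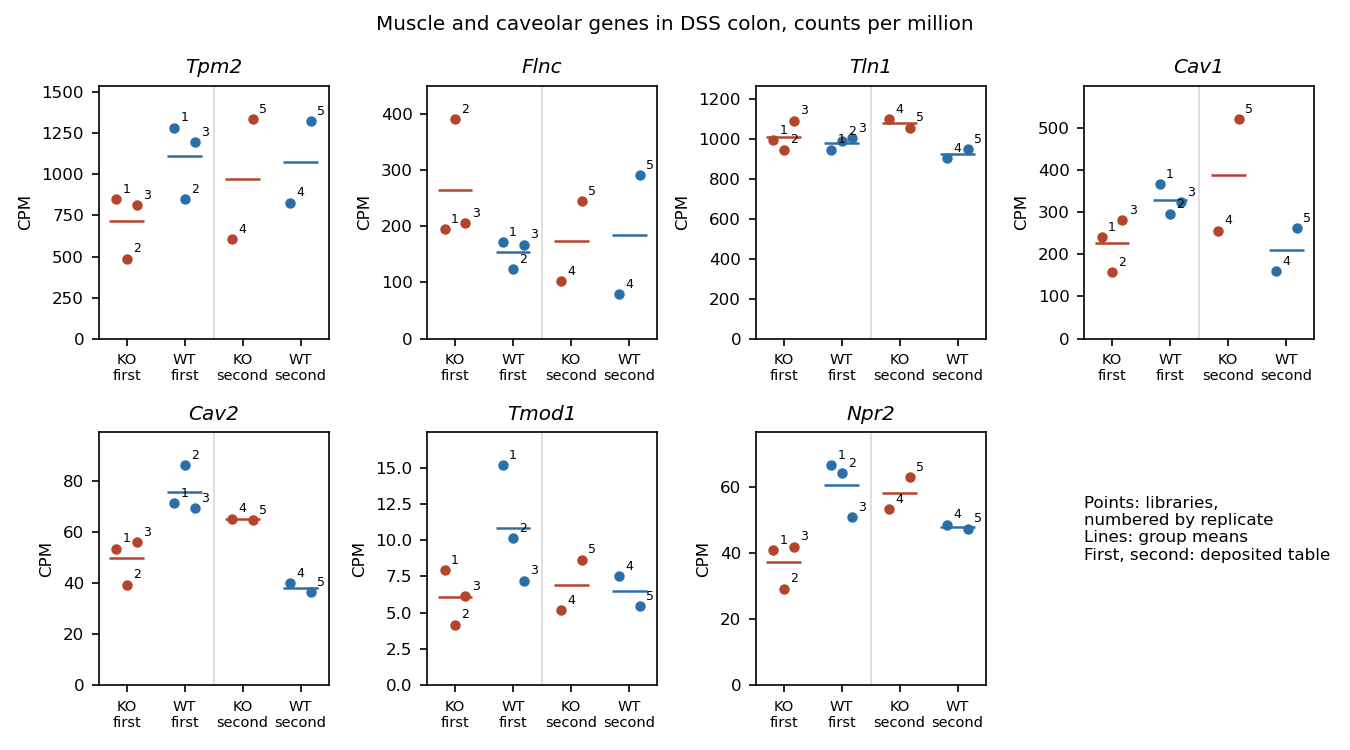
CPM of each gene by genotype and deposited table, with every library as a numbered point and the group mean as a line; vertical axes start at 0 and differ between panels. Cav2 was lower in all 3 knockout libraries than in all 3 WT libraries of the first table and higher in both knockout libraries of the second, while Tln1 stayed between 905 and 1101 CPM in all 10.

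Over both tables together, 0 of the 7 genes differed between genotypes by edgeR's quasi-likelihood test at an adjusted p of 0.05, and 0 of them reached an unadjusted p of 0.05. The same fit called 5.63% of the 9736 rows tested, and 8.90% of the 427 tested inside the named stretches. The CPM ranges of the genotypes overlapped for all 7, while 7.22% of rows had ranges that did not. DESeq2 and voom also called 0 of the 7, with 848 and 564 of all rows called. Without a filter on low counts, edgeR called Tpm2 and Flnc, with 1260 of all rows called. Without WT 4 and WT 5 (and the table covariate) the count was 0 of 7 as well, but that fit called only 78 of all rows. Every second-table comparison rests on WT 4 and WT 5. In bulk colon, fewer muscle cells and less of these RNAs per cell cannot be told apart. Point estimates were below 0 for 4 genes and above 0 for 3, with a median log2 fold change of −0.04 against 0.019 for all rows. The intervals were wide. For Cav1 the 95% interval ran from −0.61 to 0.70 on the log2 scale, and for Tpm2 from −0.95 to 0.12.

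The first table gave another picture from the second. In knockouts 1 to 3, Cav2 and Npr2 fell, with WT means 1.52 and 1.62 times the knockout means. That fit called 6.06% of all rows, 2.96% as lower, and 10.6% of rows inside the named stretches. There the point estimates of Tpm2, Cav1 and Tmod1 lay below 0 as well. Flnc had an estimate above 0 there. In the second table the estimates of Cav1 and Cav2 were above 0. The genotype difference itself differed between tables for Cav2, a test that called 2.05% of rows, and this call was lost without WT 4 (adjusted p 0.0513 in edgeR) or WT 5 (0.0822). The second-table change of Cav2 alone did not pass.

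**Figure D2:**
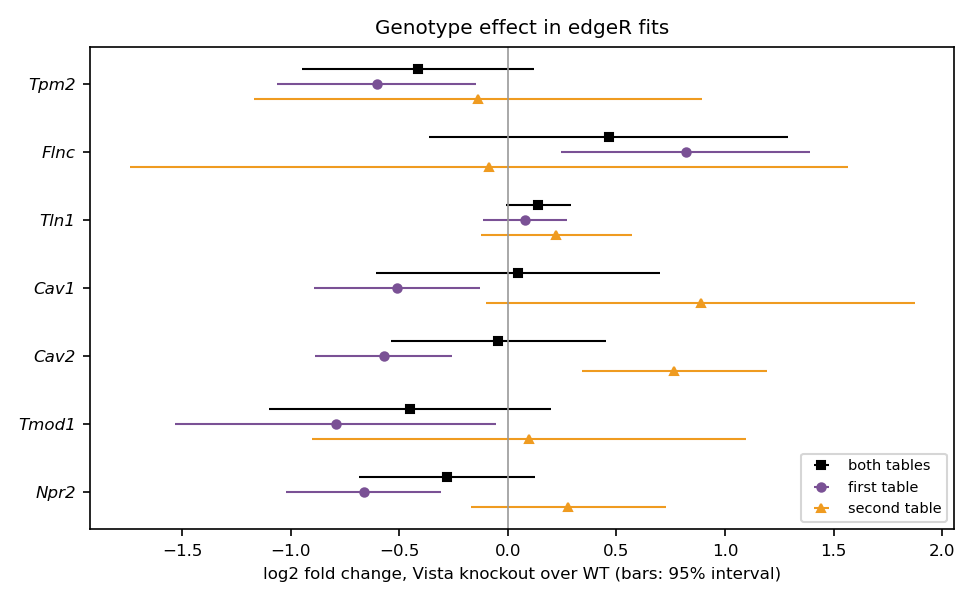
Log2 fold change of knockout over WT from edgeR for each gene, with 95% intervals, for both tables, the first table and the second table. Cav1, Cav2, Npr2 and Tmod1 have estimates below 0 in the first table and above 0 in the second, and the intervals of the second table are wider than those of the first for all 7 genes.

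Tpm2 encodes beta-tropomyosin, a thin filament protein abundant in smooth muscle (ENSMUSG00000028464, mm10 chromosome 4 from 43514711 to 43523765, minus strand). It stood at 852, 488 and 814 CPM in knockouts 1 to 3 and at 1285.5, 849 and 1199 in WT 1 to 3. It was 607 and 1339 in knockouts 4 and 5 and 828.6 and 1323 in WT 4 and 5. Knockout 2 was the lowest library and knockout 5 the highest, and the genotypes overlapped in both tables, in the first by the 852 of knockout 1 against the 849 of WT 2. The log2 fold change was −0.60 ± 0.21 (SE) in the first table, with an adjusted p of 0.102 in edgeR. The second table gave −0.14 ± 0.42 and an adjusted p of 0.934. Over both tables it was −0.41 ± 0.24 with an adjusted p of 0.329. Without knockout 2 the first-table value was −0.40, and DESeq2 called the first table with an adjusted p of 0.0258.

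Tmod1 encodes tropomodulin 1, which caps the slow-growing end of actin filaments in muscle and red cells (ENSMUSG00000028328, chromosome 4 from 46038935 to 46116032, plus strand). It had 7.95, 4.18 and 6.15 CPM in knockouts 1 to 3 and 15.2, 10.2 and 7.20 in WT 1 to 3. Knockouts 4 and 5 had 5.18 and 8.66 CPM, and WT 4 and 5 had 7.52 and 5.42. WT 1 was the highest and the genotypes overlapped in each table. The first-table log2 fold change of −0.79 ± 0.33 (SE) had an adjusted p of 0.164 in edgeR. The row overlaps the end of Tstd2, on the other strand, by 1287 bases, and the counting was not stated to use strand.

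Other genes listed with the contractile apparatus could be followed only where they lie in the named stretches, including a further one on chromosome 15. Of 23 genes listed for contractile smooth muscle, 4 lie there and 3 were tested, namely Tpm2, the sarcoglycan gene Sgce and Matn2, a matrix protein gene. Of those 3 only Tpm2 encodes a part of the thin filament, so Sgce and Matn2 do not measure the contractile apparatus itself. None of the 3 passed in any of the 3 comparisons. Sgce had 40.2, 22.8 and 35.3 CPM in knockouts 1 to 3 and 47.6, 48.2 and 39.1 in WT 1 to 3. Knockouts 4 and 5 had 47.4 and 48.8 CPM of Sgce, and WT 4 and 5 had 36.0 and 36.6. Its first-table estimate was −0.42 (adjusted p 0.190 in edgeR) and its second-table estimate 0.41 (adjusted p 0.371). Matn2 had 33.5, 23.1 and 28.1 CPM in knockouts 1 to 3 and 37.9, 46.2 and 38.3 in WT 1 to 3, without overlap, and an adjusted p of 0.0850 in edgeR. Knockouts were all lower in 17.1% of rows of the first table. Of 18 genes of thin filaments and filament capping, 6 lie there and 5 were tested, and 0 passed. The most abundant was Coro2a, an actin-binding coronin gene, at 1569 ± 205 CPM in knockout and 1557 ± 173 in WT (SD, n = 5 each).

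Flnc encodes filamin C, an actin cross-linker of muscle cells (ENSMUSG00000068699, chromosome 6 from 29433256 to 29461883, plus strand). Its values were 194, 391 and 205.5 CPM in knockouts 1 to 3 and 171, 123 and 167 in WT 1 to 3. Knockouts 4 and 5 had 102 and 244 CPM, and WT 4 and 5 had 79.0 and 291. In the first table all knockouts lay above all WT libraries, with the highest value in knockout 2, the library in which Tpm2 was lowest. Such separation in either direction occurred in 30.6% of rows of the first table. The first-table log2 fold change was 0.82 ± 0.26 (SE), with an adjusted p of 0.0826 in edgeR, and it was 0.40 without knockout 2. The second table gave −0.09 ± 0.67 and an adjusted p of 0.977.

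Tln1 encodes talin 1, which links integrins to actin in most cell types (ENSMUSG00000028465, chromosome 4 from 43531519 to 43562691, minus strand). It lies 7753 bases from Tpm2 and shares 360 bases with Creb3 on the other strand. It had 995, 947 and 1093 CPM in knockouts 1 to 3, 1101 and 1058 in knockouts 4 and 5, 948, 992 and 1005 in WT 1 to 3, and 905 and 948 in WT 4 and 5. Its coefficient of variation over the 10 libraries was 6.63%, against 32.0% for Tpm2 next to it. The log2 fold change over both tables was 0.14 ± 0.07 (SE), with a 95% interval from −0.01 to 0.29 and an adjusted p of 0.241 in edgeR. Of 20 genes listed for cell adhesion and its links to actin, 6 lie in the named stretches, all 6 were tested and 0 passed in any comparison. Tes, the gene of the focal adhesion protein testin, was the most abundant of the others, at 787 ± 74.0 CPM in knockout and 759 ± 46.6 in WT (SD, n = 5 each).

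Cav1 encodes caveolin 1, the main scaffold of caveolae outside striated muscle (ENSMUSG00000007655, chromosome 6 from 17306335 to 17341452, plus strand). It had 240.0, 157 and 281 CPM in knockouts 1 to 3 and 366, 295 and 324 in WT 1 to 3. It had 256 and 521 CPM in knockouts 4 and 5 and 160.1 and 261 in WT 4 and 5. All knockouts lay below all WT libraries in the first table, as in 17.1% of its rows, whereas the genotypes overlapped in the second. The first-table log2 fold change was −0.51 ± 0.17 (SE) with an adjusted p of 0.0990 in edgeR, and DESeq2 gave an adjusted p of 0.0436. The second-table value was 0.89 ± 0.40 with an adjusted p of 0.396. It was 0.27 without knockout 5 and 1.31 without knockout 4. The difference between the tables, 1.40 ± 0.43, had an adjusted p of 0.148 in edgeR. DESeq2 gave 0.0299 for it, in a fit that called 344 of all rows.

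Cav2 encodes caveolin 2, which forms complexes with caveolin 1 (ENSMUSG00000000058, chromosome 6 from 17281185 to 17289115, plus strand). It lies 17219 bases from Cav1, and both lie within the antisense gene Gm15581, whose row held 0 counts. Cav2 had 53.4, 39.3 and 56.1 CPM in knockouts 1 to 3 and 71.2, 86.0 and 69.2 in WT 1 to 3. It had 65.2 and 64.5 CPM in knockouts 4 and 5 and 40.0 and 36.3 in WT 4 and 5. The genotypes did not overlap in either table, and they lay in opposite order. Separation in either direction occurred in 30.6% of the rows of the first table. It occurred in 44.8% of the rows of the second table, where only 2 libraries per genotype are compared. In the first table Cav2 fell, with a log2 fold change of −0.57 ± 0.14 (SE) and an adjusted p of 0.0441 in edgeR. The second table gave 0.77 ± 0.17 and an adjusted p of 0.114, with 0.856% of rows called there (1.38% inside the named stretches). The difference between the tables was 1.34 ± 0.22 with an adjusted p of 0.0113 in edgeR, and 1.76% of rows were called with the larger value in the second table, as for Cav2. Inside the named stretches 2.58% were called. Leaving out WT 4 gave 1.42 and leaving out WT 5 gave 1.26. The first-table call of Cav2 was lost without any 1 of the 6 libraries, with adjusted p values of 0.0565 to 0.141, and with scaling from the named stretches. Leaving out 1 library also cut the calls over all rows, from 596 to between 158 and 456, so such a loss is not particular to Cav2.

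The only other caveolar gene in the named stretches was Cavin4, a cavin gene of striated muscle. It had 0 to 1.97 CPM and was not tested. The libraries therefore give caveolar values only for the caveolins.

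Npr2 encodes the receptor for C-type natriuretic peptide, a guanylyl cyclase (ENSMUSG00000028469, chromosome 4 from 43631935 to 43651244, plus strand). Its row shares 9599 bases with Gm12473 on the other strand, whose row held 88 counts, and the counting was not stated to use strand. Npr2 had 41.0, 29.2 and 42.0 CPM in knockouts 1 to 3 and 66.6, 64.2 and 50.9 in WT 1 to 3. It had 53.3 and 63.0 CPM in knockouts 4 and 5 and 48.6 and 47.4 in WT 4 and 5. Every knockout lay below every WT library in the first table and above both WT libraries in the second. Knockouts were all lower in 17.1% of rows of the first table, and 44.8% of rows were separated in either direction in the second. In the first table Npr2 fell, by a log2 fold change of −0.66 ± 0.16 (SE) with an adjusted p of 0.0409 in edgeR. The call held without WT 3 (adjusted p 0.0445) and was lost without any other single library, with adjusted p values of up to 0.118. Over all rows those fits called 158 to 456, against 596 with every library kept. The second-table value of Npr2 was 0.28 ± 0.18 with an adjusted p of 0.584 in edgeR. The difference between tables, 0.94 ± 0.25, had an adjusted p of 0.0925. Npr3, the clearance receptor gene of the same peptides, had 6.65 ± 1.89 CPM in knockout and 5.95 ± 1.85 in WT (SD, n = 5 each), with an adjusted p of 0.702 in edgeR. Those 2 were the only ones of 11 listed natriuretic peptide genes in the named stretches.

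In the first table, then, 2 of 7 genes were called, both lower, and 5 of 7 had estimates below 0, with a median log2 fold change of −0.57 against −0.003 for all rows. DESeq2 called 4 of the 7 there and 694 of all rows, and the fit with no filter on low counts 5 of the 7 and 1322 of all rows, against 596 rows in the fit with the filter. Cav1, Cav2 and Npr2 had all first-table knockouts below all WT libraries, a separation found in 17.1% of rows. For the second table, none of the 7 (0) passed in edgeR, in DESeq2 or in voom, which called 85, 439 and 28 of all rows. In edgeR 1 (Cav2) had an unadjusted p below 0.05, and the median was 0.22 against 0.015 for all rows. For the test of a difference between tables, 1 of 7 passed.

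Knockout 2 weighed on the first table. It had the lowest value of its table in 6 of the 7 genes, the exception being Flnc, for which it had the highest. Relative to the mean of the first table its log2 CPM was −0.84 for Tpm2, −0.77 for Cav1, −0.63 for Cav2, −0.90 for Tmod1 and −0.69 for Npr2, and 1.002 for Flnc. Without it the first-table estimates were −0.40, −0.31, −0.44, −0.59 and −0.52 for those 5 genes and none was called. None was called without knockout 1, knockout 3, WT 1 or WT 2 either. Of all rows, 261 were called without knockout 2 and 158 without WT 2, against 596 with every library kept. Knockouts 1 and 3 lay closer to the mean of the table, at −0.04 and −0.10 for Tpm2 and −0.20 and −0.17 for Npr2. Knockouts 4 and 5 differed from each other more than the genotypes did for Tpm2, at −0.68 and 0.46.

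**Figure D3:**
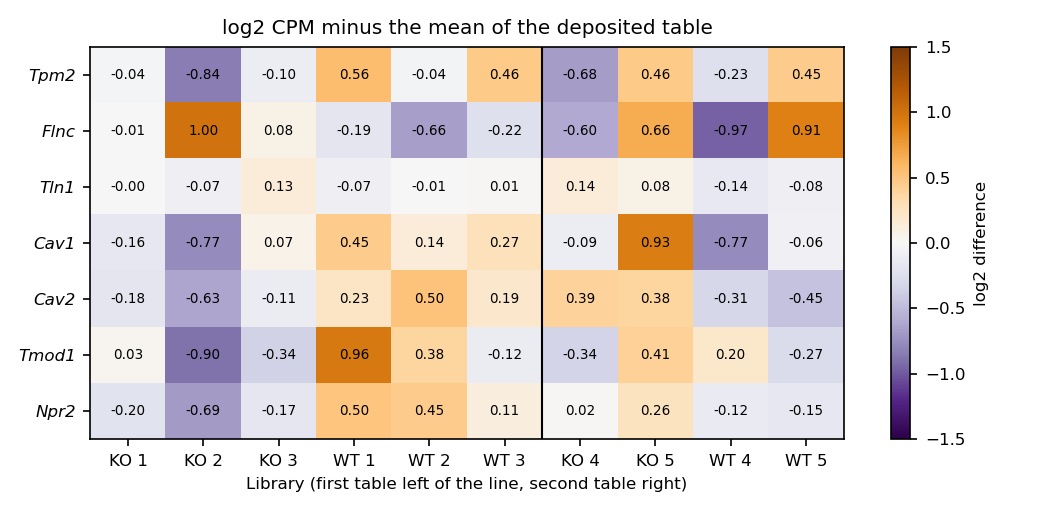
Log2 CPM of each gene in each library minus the mean of its deposited table, with the first table left of the line; orange is above and purple below the mean. Knockout 2 is low for Tpm2 (−0.84), Cav1, Cav2, Tmod1 and Npr2 and high for Flnc (1.002), and Tln1 stays between −0.14 and 0.14.

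Co-variation of the genes was measured over 8 libraries, without WT 4 and 5, which stood apart on the first component. These 8 comprise 5 knockout and 3 WT libraries, and the second table enters only through knockouts 4 and 5. Differences between genotypes and between tables therefore enter the values. The permutations treated the 8 libraries as interchangeable, so their p-values do not separate co-variation from those differences. Over 21 pairs, Tpm2 and Cav1 had a Pearson r of 0.90 on log2 CPM, with an exact permutation p of 0.00102 and an adjusted p of 0.0154. Spearman's rho was 0.86 with an exact p of 0.0107 and an adjusted p of 0.113. Without the 2 libraries farthest from the median of Tpm2, r was 0.83, and within the 6 libraries of the first table it was 0.95. Cav2 and Npr2 had an r of 0.92, with an exact permutation p of 0.00146 and an adjusted p of 0.0154, and a rho of 0.88 with an exact p of 0.00724 and an adjusted p of 0.113. Without the 2 farthest libraries it was 0.85, and for the first table alone 0.96. Cav1 and Cav2, although neighbours, had an r of 0.67 with an exact permutation p of 0.0747 and an adjusted p of 0.157.

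No pair with Flnc or Tln1 passed. The r of Flnc with Cav2 was −0.79, with an exact permutation p of 0.0254 and an adjusted p of 0.0888, and with Tpm2 it was −0.15 with an exact p of 0.717. With Tpm2, leaving out the 2 libraries farthest from the median turned r to 0.52, so that the sign rests on those libraries. Centred within each table over all 10 libraries, Flnc had r 0.10 with Tpm2 and 0.11 with Cav1. Tln1 had r values between −0.39 and 0.28 with the other 6 genes, none with an adjusted p under 0.555. WT 5 and knockout 5 were high in both Flnc and Tpm2, and WT 4 and knockout 4 were low in both.

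Among 420 other rows tested in the named stretches, those most like Tpm2 by Pearson r of log2(CPM + 1), centred within each table over 10 libraries, were Sdc2 (0.92), the gene of the cell surface proteoglycan syndecan 2, Fam110b (0.92) and the small nucleolar RNA row Snord123 (0.91). Those most like Cav1 were Rusc2 (0.94), Reck (0.92), a gene of a membrane-anchored inhibitor of matrix metalloproteases, and Cped1 (0.90). For comparison, Tpm2 and Cav1 had 0.73 with each other on this scale. Reck had 18.9, 15.2 and 17.1 CPM in knockouts 1 to 3 against 31.7, 26.4 and 23.7 in WT 1 to 3. It had 20.7 and 35.9 CPM in knockouts 4 and 5 against 15.04 and 20.6 in WT 4 and 5. The edgeR adjusted p for Reck was 0.0579 from the first 6 libraries and 0.473 from the second table.

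Summed over the 7 genes, CPM was 2383, 2055 and 2497 in knockouts 1 to 3 and 2923, 2420 and 2822 in WT 1 to 3, where WT 2 fell within the knockouts' range. Its second-table values were 2190 and 3298 in knockouts 4 and 5 and 2069 and 2913 in WT 4 and 5, and the genotypes overlapped. Tln1 and Tpm2 make up most of this sum.

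Markers of other cell types that could carry caveolins or actin-binding proteins moved with genotype in part. The summed CPM of 8 fibroblast and stromal genes was 972 to 1303 in knockouts and 1363 to 1799 in WT libraries of the first table, without overlap. Second-table sums were 1439 to 1689 in knockouts and 1190 to 1698 in WT, which overlapped through 1 gene, Osr2, at 114 and 478 CPM in WT 4 and WT 5. Without Osr2, a choice made after its values were seen, they were 1438 to 1686 in knockouts and 1075 to 1220 in WT. Only without Osr2 did the stromal sum lie lower in the knockouts of the first table and higher in those of the second. The collagen gene Col1a2 made up most of that sum in every library, at 551 to 1211 CPM. By group means Col1a2, Reck, Lpar1 and Sdc2 had that order. Adamts12, Col15a1 and Osr2 were lower in knockouts in both tables, and Svep1 was higher in both, so the order was not shared by the whole list. Of these 8 genes 7 were tested over both tables, and 1 was called. Adamts12, a gene of a secreted metalloprotease, was lower, at 5.75 ± 2.00 CPM in knockout and 12.8 ± 2.42 in WT (SD, n = 5 each), with an adjusted p of 0.0127 in edgeR. The median log2 fold change of the list was −0.11 over both tables and −0.53 in the first alone. The collagen gene Col1a2 had a log2 fold change of −0.53 in the first table, with an adjusted p of 0.0652 in edgeR, and of 0.56 in the second, with 0.373. The sum of 3 endothelial genes, Gng11, Thsd7a and Ccl21a, was 31.1 to 46.5 CPM in knockouts and 56.0 to 73.1 in WT of the first table, and 34.6 to 48.5 against 68.0 to 80.5 in the second, and 1 of 2 tested was called over both tables. Ccl21a did not follow the sum, with 16.7 and 6.41 CPM in knockouts 2 and 3 and at most 0.81 CPM in WT. The G protein subunit gene Gng11 was lower, at 26.7 ± 9.36 CPM in knockout and 55.0 ± 10.7 in WT (SD, n = 5 each), with an adjusted p of 0.0133 in edgeR. Their part in the caveolin values was not tested.

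The 7 epithelial genes summed to 8318 to 8598 CPM in knockouts and 8471 to 9837 in WT of the first table, and to 7381 to 8758 against 8140 to 9265 in the second, overlapping in both. Of these, Cftr, the chloride channel gene, was lower over both tables, with a log2 fold change of −0.69 and an adjusted p of 0.0310 in edgeR. Cdh17, the intestinal cadherin that marks the labelled tissue, was present at 3393 ± 324 CPM in knockout and 3372 ± 201 in WT (SD, n = 5 each). The 8 genes of enteric neurons and glia summed to 767 to 1039 CPM in knockouts and 534 to 660 in WT of the first table, and to 382 to 541 against 390 to 469, with overlap, in the second. Without Tac1, left out after its values were seen, the first-table sums overlapped, at 254 to 437 in knockouts and 373 to 495 in WT. Of 5 tested over both tables, 2 were called. Tac1, the substance P gene, was higher (log2 fold change 1.498, adjusted p 0.00827 in edgeR) and Penk, the enkephalin gene, lower (−1.02, adjusted p 0.0308). The 6 immune genes summed to 475 to 838 CPM in knockouts 4 and 5 and to 211 and 243 in WT 5 and WT 4, the pair of libraries against which the caveolin estimates of the second table are read. In the first table those sums were 527 to 626 in knockouts and 442 to 691 in WT, and of 6 immune genes tested over both tables none was called. Lyn, the most abundant of them, had 359 ± 77.9 CPM in knockout and 248 ± 72.3 in WT (SD, n = 5 each). Its adjusted p over both tables was 0.0717 in edgeR. The first table alone called Bach2 as lower and Tfec as higher, each with an adjusted p of 0.0301 in edgeR, and the second called Cd72 and Pax5, genes of B cells, as higher. The test of a difference between tables called 4 of the 6, Bach2, Cd72, Pax5 and Irf5, each with the larger value in the second. Of all rows that test called 2.05%, and 1.76% with the larger value in the second. Like every second-table comparison, it rests on WT 4 and WT 5. The part of these libraries' makeup in the second-table values was not tested.

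Few genes of striated muscle or fat lie in the named stretches, and Ttn, Myh1, Acta1, Adipoq and Plin1 do not. Lmod2 and Asb15, genes of striated muscle, had 0 counts in all 10 libraries, which allows up to 0.813 CPM in the shallowest library, counting 3 as the limit of a count of 0 and covering counting error only. The 4 striated muscle genes in the named stretches summed to 2.42 to 5.33 CPM and the 2 fat cell genes Lep and Aqp7 to 0.27 to 3.44 CPM. Musk was the most abundant of those 4, at 2.74 ± 0.79 CPM in knockout and 3.10 ± 1.10 in WT (SD, n = 5 each).

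**Figure D4:**
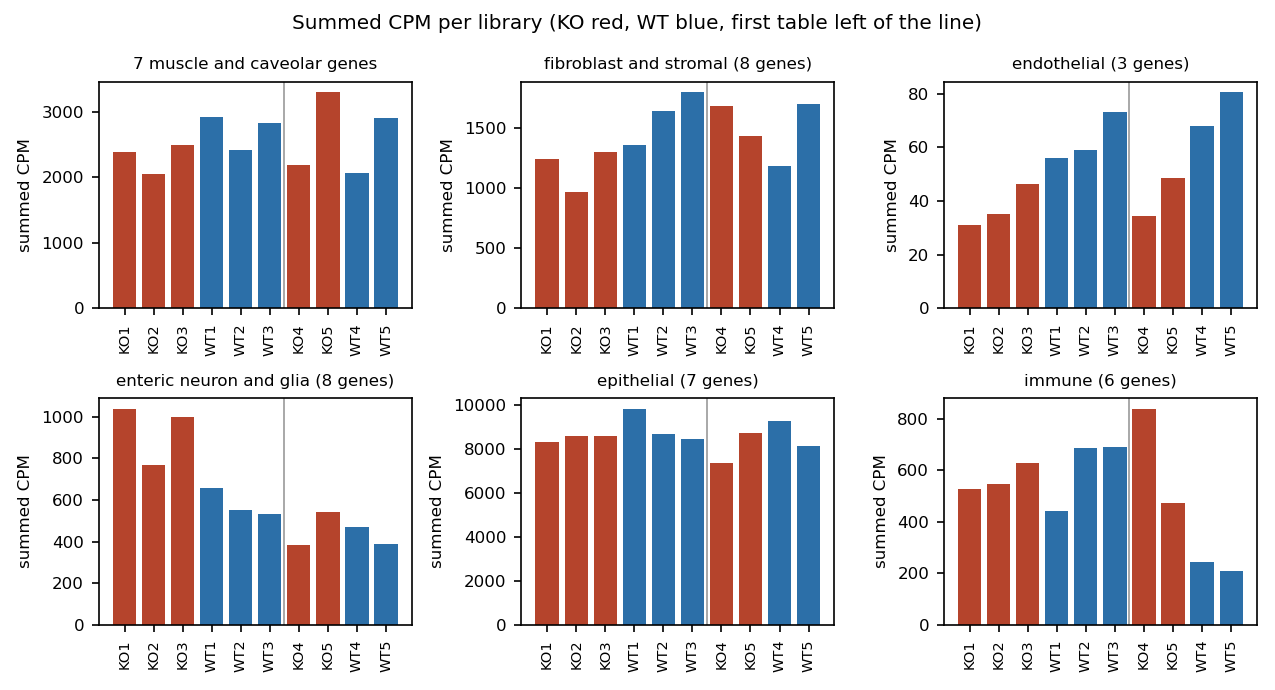
Summed CPM in each library of the 7 genes and of marker genes of other cell types in the named stretches, with knockout in red, WT in blue and the first table left of the line; vertical axes start at 0 and differ between panels. The endothelial sum is lower in every knockout than in every WT library, the immune sum is lowest in WT 4 and WT 5 (243 and 211 CPM), and the sum of the 7 genes overlaps between genotypes.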

How the data were processed

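Total RNA from whole colon was sequenced on a BGIseq500, per the labels' protocols. The deposited values are raw read counts per Ensembl gene, made by the authors with HISAT2 and featureCounts 2.0.1, per the submitters' processing notes, which name GRCh38 for the first table (HISAT2 2.2.1), although the identifiers are mouse, and mm10 for the second. The sources used here give neither the annotation nor the strand setting.

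GENCODE M21 named 52083 of 55416 rows. Rows with an identifier but no name, 0.358% to 0.410% of counts, stayed in totals and tests. Counts were tested with edgeR 4.0.16 (TMM, expression filter, quasi-likelihood test, Benjamini-Hochberg over all rows, threshold 0.05), with the table as covariate for both tables together, for each table alone and as an interaction. The scripts were tested on simulated data. Alternatives were DESeq2 1.42.0, voom in limma 3.58.1, other scalings, no filter, no covariate and omitted libraries. CPM used column totals. The genes, lists and stretches were chosen with earlier results of these data known. Named genes were all 7, the listed genes that passed over both tables, the most abundant of each list, and 3 rows most like Tpm2 and Cav1. Others named, such as Sgce and Reck, were chosen after their values were seen. The result of 1 listed gene is not reported here.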

Additional observations from a re-analysis of the deposited data

Results flagged for a closer look

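The genotype difference of Cav2 was not the same in the 2 deposited tables. Its log2 fold change went from −0.57 to 0.77 between them, a difference of 1.34 with an adjusted p of 0.0113 by the interaction term in edgeR. Cav2 was lower in 3 of 3 knockouts of the first table and higher in 2 of 2 of the second. Knockouts were all lower in 17.1% of first-table rows, and 44.8% of second-table rows were separated in either direction. The interaction term was called for 2.05% of rows. Leaving out either WT library of the second table gave a difference of 1.42 or 1.26. The call was lost in those fits, though each kept only 1 WT library of that table. The first-table call of Cav2 was lost without any 1 of its libraries. Of 14 sets of 5 libraries, 1 for each gene and genotype, 0 held a library far from the others by Dixon's test, of which chance flags about 1 in 20.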

How the results depend on the processing

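No paired analysis was possible because no label pairs a knockout with a WT library. Over both tables, 0 of the 7 genes were called with every alternative except no filter on low counts, which called 2, and leaving out 1 library gave 0 to 0. In the first table, DESeq2 called 4, no filter 5 and scaling from the named stretches 1, and leaving out 1 library gave 0 to 1. For the difference between tables DESeq2 called 2 and no filter 3, and leaving out 1 library gave 0 (without WT 4 or WT 5) to 2 (without knockout 4). Those DESeq2 and unfiltered fits of the difference called 344 and 717 of all rows. The second table gave 0 throughout. Without 1 library it gave 0 to 0, but those fits, in which the lone library of a genotype was assumed to vary like the others, called only 0 to 5 of all rows, so they say nothing about stability. Over both tables Cav1 turned to −0.17 without WT 4, WT 5 and the covariate, and ran from −0.25 to 0.23 as 1 library was left out, and Cav2 from −0.21 to 0.098. In the second table Flnc turned to 0.058 with voom and ran from −0.86 to 1.12, Tpm2 from −0.83 to 0.32 and Tmod1 from −0.33 to 0.42. The difference between tables ran from −0.22 to 0.93 for Tpm2 and from −1.68 to 0.30 for Flnc. The cause was not tested. Over all rows the counts called were 548 over both tables (78 to 1260 over the alternatives), 596 in the first (158 to 1322), 85 in the second (0 to 439) and 200 for the difference (57 to 717). Depth limits Tmod1 most, at 17 to 56 counts a library.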

Other observations

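Osr2, a transcription factor gene of mesenchyme, had 114 and 478 CPM in WT 4 and WT 5 and 0.49 to 3.21 CPM in the other 8 libraries. In the second table, the comparison in which it passed, its log2 fold change was −6.99 with an adjusted p of 0.0445 in edgeR. Svep1, a gene of a secreted adhesion protein of the stroma, had 34.6 and 62.0 CPM in WT 4 and WT 5 and 82.0 to 139 in the others. Both genes were chosen after their values were seen.

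Ccl21a, a chemokine gene of lymphatic vessels and lymphoid tissue, had 16.7 CPM in knockout 2 and 6.41 in knockout 3, and at most 0.99 in the other 8 libraries. It has near-identical copies, so its value is uncertain. Knockout 2 is also the library with the lowest Tpm2, Cav1, Tmod1 and Npr2 of all 10.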
